A study of Mus musculus with 5 samples.

Results

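The genes that carry a cell from mitogen signals through G1 to the restriction point were followed in mouse neural precursor cells (NPC): the D-type cyclins Ccnd1, Ccnd2 and Ccnd3, their kinases Cdk4 and Cdk6, the E-type cyclins Ccne1 and Ccne2, the inhibitor Cdkn1b, and the switch genes Rb1 and E2f1. They are 10 of the 46078 genes in each library's abundance table. They were taken by symbol, not by a measured value, though with earlier results of these data known. All 10 were found in every table and had a mean of at least 1 TPM (a level corrected for transcript length that sums to the same total in each library). A separate table of raw read counts held 8 of them, without Ccnd1 and Cdk6.

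In G1, growth factor signals induce D-type cyclins, which bind Cdk4 or Cdk6 and begin the phosphorylation of the retinoblastoma protein Rb. Rb then releases E2F transcription factors, which switch on the E-type cyclins and the genes of DNA replication, and cyclin E with Cdk2 completes the phosphorylation of Rb, so that the cell passes the restriction point and no longer needs mitogens to divide. The inhibitor p27, product of Cdkn1b, restrains cyclin E-Cdk2, and in the adult forebrain these regulators set how often neural stem and precursor cells divide.

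The cells came from the subventricular zone of adult C57BL/6 mice (C57BL/6j in the study's methods) with no mutation, given in the labels as female and 5 to 8 weeks old. The study's methods give a higher age and define a biological replicate of these cells as 1 animal. They were grown as neurospheres with EGF and FGFb, plated on PDL, and left as undifferentiated controls of a study of stem cell-derived astrocytes. A day after plating every culture received PBS as a sham exposure, and RNA was taken 1 h later (2 libraries, replicates 1 and 2) or 8 h later (3 libraries, replicates 13, 14 and 15). There was no untreated group, so the labels contrast the time after PBS addition alone. In cultures of many cells, fewer cells of a type and less RNA per cell cannot be told apart.

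The 5 libraries did not fall apart by time alone. Their identifiers form 2 number series, which the sources used here do not explain: series 1 holds both 1 h libraries and 8 h replicate 14, and series 2 holds 8 h replicates 13 and 15. The summed level of 4 Y-linked genes lay between 138 and 181 TPM in the series 1 libraries and at or near 0 in series 2, while Xist was at or near 0 in series 1 and at 165 and 199.7 TPM in series 2, so the 3 series 1 libraries went against the label female. The mitochondrial share of the TPM was 10.7% to 11.1% in series 1 and 6.23% and 6.30% in series 2. Within series 2 there was no 1 h library, so the fold changes of the members in TPM are given over all libraries, with series as a term (which sets the time difference from 8 h replicate 14 alone), and without that library, where time and series cannot be told apart. Values at 8 h are listed in the order of replicates 14, 13 and 15 throughout. The precursor markers Fabp7 (7679 to 10076.0 TPM), Vim (2032 to 2552 TPM), Nes (690.1 to 784 TPM) and Sox2 (181 to 228 TPM) were high in every library. Of 5 microglia markers 0 reached a mean of 1 TPM, and of 5 endothelial markers 2 did (Flt1 at 9.71 to 13.6 TPM and Kdr at 1.07 to 1.97 TPM), with Cdh5 and Cldn5 listed at 0 in all libraries. All 6 oligodendrocyte lineage markers reached a mean of 1 TPM and summed to 1599.9 to 2236 TPM in series 1 and to 2121 and 2441 TPM in series 2, though the myelin gene Mbp was at 27.8 to 38.5 TPM in series 1 and at 7.96 and 11.0 TPM in series 2. All 5 neuron markers did so too, with sums of 62.4 to 68.3 TPM in series 1 and of 43.2 and 46.4 TPM in series 2, as did 1 of 4 ependymal markers (Foxj1), with Tmem212 listed at 0. The part of these cells in the results below was not tested.

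Over all 5 libraries, limma called none of the 10 genes between 8 h and 1 h (0 members, against 6 of 13870 genes or 0.0433%). A call required an adjusted p no higher than 0.05 together with a log2 fold change beyond 1 in either direction. Before adjustment, 2 of the 10, Ccnd1 and Ccnd2, had p under 0.05, against 12.3% of all genes, and both were higher at 8 h (9.52% of genes higher, 2.82% lower). In TPM, every 8 h library lay above both 1 h libraries for 3 members, Ccnd1, Ccnd2 and Ccne2, against 23.7% of all genes, and below both for 1 member, Cdk6, against 9.43%. More members were separated by series than by time: both series 2 libraries lay above all 3 series 1 libraries for 6 members (Ccnd1, Ccnd2, Ccne1, Ccne2, Cdkn1b and E2f1), against 39.8% of all genes, and below them for Cdk6 and Rb1 (2 members), against 13.5%. Fold changes are given on the scale log2(TPM + 1), which understates the change of low genes such as Cdk6. The median over all genes tested was 0.10 on that scale and the median of the 10 members was 0.16, and scaling the tables to a common median ratio moved the 2 medians to -0.0042 and 0.043.

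**Figure D1:**
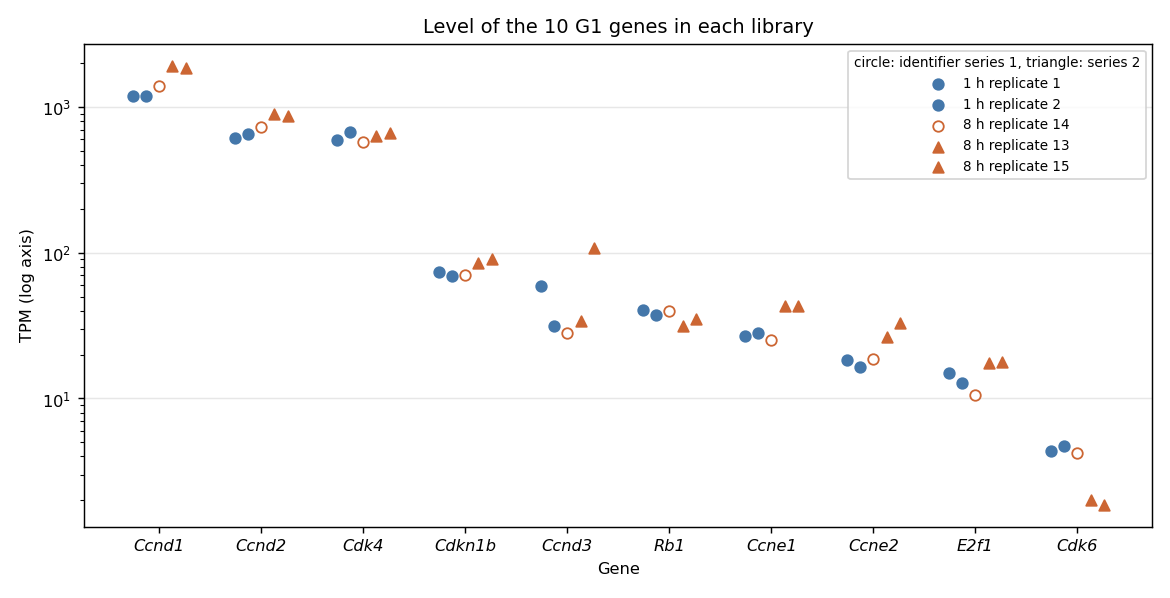
TPM of the 10 G1 genes (log axis) in each library, with 1 h libraries as filled blue circles, 8 h replicate 14 as an open circle and 8 h replicates 13 and 15 as triangles; circles are identifier series 1 and triangles series 2. Ccnd1 runs from 1189 to 1915 TPM and Cdk6 from 1.86 to 4.73 TPM, and for Ccne1 the open circle lies with the 1 h libraries.

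By level, the genes fell into steps. Ccnd1 had the highest mean over the 5 libraries (1509 TPM ± 356, SD, n = 5), above 99.5% of the genes tested, and its range did not overlap that of Ccnd2 (751 ± 125). Ccnd2 and Cdk4 (629 ± 42.2) overlapped, with Ccnd2 higher in 4 of 5 libraries. A gap then separated Cdk4 from Cdkn1b (77.8 ± 9.32), with no overlap. From Cdkn1b down through Ccnd3, Rb1, Ccne1 and Ccne2 to E2f1 (14.7 ± 3.19), each gene's range overlapped that of its next lower neighbour, although Ccne1 lay above Ccne2 and Ccne2 above E2f1 in all 5 libraries. Cdk6 stood last at 3.44 ± 1.38 TPM, below E2f1 in every library.

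Ccnd1 encodes cyclin D1, the D-type cyclin most directly driven by growth factor signalling (chr7:144929931-144939869, GRCm38, minus strand). Its level was 1191 and 1189 TPM in 1 h replicates 1 and 2 and 1387, 1915 and 1862 TPM at 8 h. The 1 h libraries were nearly level, 8 h replicate 14 was the lowest at 8 h, and the groups did not overlap. The mean was 1189.8 ± 1.23 TPM (SD, n = 2) at 1 h and 1721 ± 291 TPM (SD, n = 3) at 8 h, a log2 fold change of 0.52 (SE 0.16, adjusted p = 0.365 by limma). With series as a term the difference was 0.22 (SE 0.08, adjusted p = 0.518 by limma), the only member with an unadjusted p under 0.05 in that fit, against 9.06% of all genes. Without 8 h replicate 14 it was 0.67 (SE 0.07, adjusted p = 0.00446 by limma). The count table holds no row for Ccnd1.

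Ccnd2 encodes cyclin D2, a D-type cyclin needed for the division of neural precursors in the postnatal brain (chr6:127125162-127152193, minus strand). It stood at 617 and 649.8 TPM at 1 h, and at 726, 893 and 868 TPM in 8 h replicates 14, 13 and 15. All 8 h libraries were again above both 1 h libraries, with 8 h replicate 14 nearest to them. Its log2 fold change was 0.38 (SE 0.12, adjusted p = 0.369 by limma), it was 0.20 with series as a term (adjusted p = 0.594 by limma), and it was 0.47 without 8 h replicate 14 (adjusted p = 0.0128 by limma). In CPM, read counts scaled to the column total, the columns named for the same libraries gave 2724 and 2922 at 1 h and 2416, 3224 and 3624 in the columns named for 8 h. There the groups overlapped, since the column named 8 h replicate 14 was the lowest of all, and edgeR gave 0.10 (SE 0.18, adjusted p = 0.969).

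Ccnd3 encodes cyclin D3 (chr17:47505051-47599691, plus strand), which shares the kinase partners of the other D-type cyclins. It read 59.2 and 31.2 TPM at 1 h and 28.0, 34.1 and 107 TPM at 8 h. High and low values occurred in both groups, and the highest library was 3.83 times the lowest, the widest spread among the 10 genes. For this gene the log2 fold change was 0.12 (SE 0.60, adjusted p = 0.927 by limma), -0.60 with series as a term (adjusted p = 0.828 by limma) and 0.48 without 8 h replicate 14 (adjusted p = 0.557 by limma). In the count table the same gene was steady, at 132 and 159.8 CPM at 1 h and at 165, 149.9 and 152 CPM in the columns named for 8 h. Its highest column was 1.25 times its lowest. The 2 readouts also disagreed in direction at 1 h, where replicate 1 was 1.89 times replicate 2 in TPM and 0.825 times replicate 2 in CPM, and 99.6% of 6922 genes with at least 100 counts in both 1 h columns showed a smaller disagreement. The GENCODE vM21 annotation gives Ccnd3 21 transcripts, the most of the 10 genes, with lengths from 277 to 3858 bases, and the part of transcript length in its TPM was not tested.

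Summed over the 3 D-type cyclins, the level was 1867 and 1869.96 TPM at 1 h and 2141, 2841 and 2837 TPM at 8 h. The ratio of that sum to the summed Cdk4 and Cdk6 level was 3.10 and 2.77 at 1 h and 3.70, 4.46 and 4.25 at 8 h, with no overlap and the smallest 8 h value again in replicate 14. Ccnd1 made up 63.7% ± 0.14 (SD, n = 2) of the D-type cyclin sum at 1 h and 65.9% ± 1.33 (SD, n = 3) at 8 h. The difference of 2.26 percentage points had a two-sided exact permutation p of 0.2, the smallest that 2 against 3 libraries allow.

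Cdk4 encodes the main kinase partner of D-type cyclins in these cells by RNA level (chr10:127063534-127067920, plus strand). It was 598 and 671 TPM at 1 h and 574, 635 and 665 TPM at 8 h. No order by time was visible, the groups overlapped, and the highest library was 1.17 times the lowest, the narrowest spread of the 10 genes. On the log2 scale the change was -0.024 (SE 0.11, adjusted p = 0.925 by limma), -0.14 with series as a term (adjusted p = 0.747 by limma) and 0.036 without 8 h replicate 14 (adjusted p = 0.790 by limma). In CPM it ran from 763 to 807 over the 5 columns, a 1.06-fold range, and edgeR gave a log2 fold change of -0.0004 (SE 0.09, adjusted p = 1.00). The Cdk4 promoter is shown as the example with repeated Myc-type motifs. The RefSeq promoter table (GRCm38.p6) held windows for 6 of the 10 members, namely Ccnd3, Cdk4, Cdk6, Ccne1, Cdkn1b and E2f1. They were searched on both strands, over the 250 bases before the RefSeq start, for the E-box CACGTG (bound by Myc and related factors), the E2F strings TTTCCCGC, TTTGGCGC, TTTCGCGC and TTTGCCGC, and the GC box GGGCGG (bound by Sp1-type factors). Capitals mark the matches in the sequences, which run 5′ to 3′ along the gene's strand and leave out bases inside the gene as the abundance tables place it. The Cdk4 stretch is chr10:127063285-127063533, plus strand.
Cdk4 promoter: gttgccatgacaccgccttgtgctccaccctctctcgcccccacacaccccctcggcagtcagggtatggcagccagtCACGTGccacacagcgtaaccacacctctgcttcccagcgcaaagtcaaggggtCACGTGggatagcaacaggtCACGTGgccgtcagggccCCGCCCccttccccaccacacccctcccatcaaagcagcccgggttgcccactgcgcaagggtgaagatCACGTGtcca
It held 4 E-boxes, which begin between 172 and 11 bases before the RefSeq start, and 1 GC box, with no match overlapping another. An E-box occurred in 6.02% of 32807 promoter windows of the same length, and 4 or more in 7 of them (0.0213%). Myc itself, a mitogen-induced transcription factor gene, was 66.2 and 76.1 TPM at 1 h and 85.1, 84.4 and 86.2 TPM at 8 h, above 1 h in all 3. In the counts its log2 fold change was -0.055 (SE 0.14, adjusted p = 0.979 by edgeR), the opposite direction. A match of letters is a description and not a measured binding site.

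Cdk6, the other cyclin D kinase (chr5:3341485-3531008, plus strand), was low throughout. It was 4.36 and 4.73 TPM at 1 h and 4.24, 2.01 and 1.86 TPM at 8 h. All 8 h libraries lay below both 1 h libraries, but 8 h replicate 14 stood beside the 1 h values, while replicates 13 and 15 were lower by more than the whole spread of the other libraries. The change on the log2 scale was -0.64 (SE 0.30, adjusted p = 0.422 by limma). With series as a term it was -0.08 (SE 0.19, adjusted p = 0.923 by limma), and without 8 h replicate 14 it was -0.92 (SE 0.16, adjusted p = 0.0153 by limma). Cdk4 supplied 99.3% ± 0.017 (SD, n = 2) of the summed Cdk4 and Cdk6 level at 1 h and 99.6% ± 0.25 (SD, n = 3) at 8 h, a difference of 0.27 percentage points (two-sided exact permutation p = 0.6). The difference was -0.022 points between 8 h replicate 14 and the 1 h libraries. The count table holds no row for Cdk6.

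**Figure D2:**
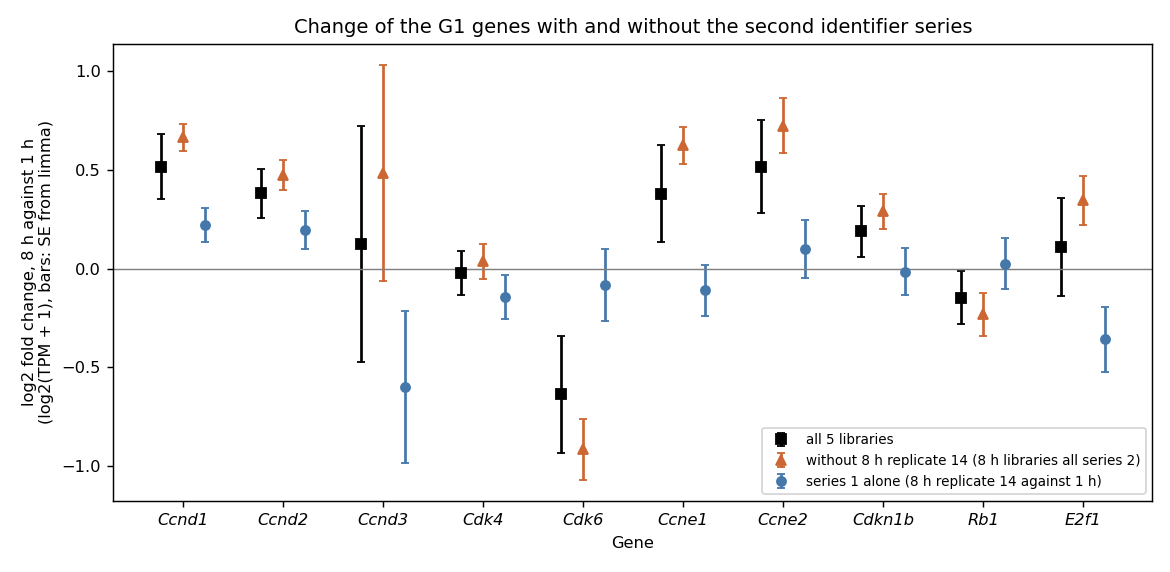
Log2 fold change of each G1 gene, 8 h against 1 h, on the scale log2(TPM + 1), for all 5 libraries (black squares), without 8 h replicate 14 (orange triangles) and for series 1 alone (blue circles); bars are the standard error from limma, and the lone 8 h library of the last fit is assumed to vary like the 1 h libraries. Cdk6 moves from -0.92 without 8 h replicate 14 to -0.08 in series 1 alone, whereas Ccnd1 stays above 0 in all 3 fits.

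The E-type cyclins bind Cdk2 and act late in G1. Ccne1 (chr7:38097984-38107534, minus strand) was 26.7 and 28.2 TPM at 1 h and 25.4, 42.9 and 42.8 TPM at 8 h. The groups overlapped because 8 h replicate 14 was the lowest of the 5 libraries, and the series 2 libraries were 1.52 times the highest series 1 library or more. Limma gave a log2 fold change of 0.38 (SE 0.24, adjusted p = 0.496), -0.11 with series as a term (adjusted p = 0.822 by limma) and 0.62 without 8 h replicate 14 (adjusted p = 0.0118 by limma). In CPM it was 36.2 and 39.5 at 1 h and 60.9, 36.0 and 54.5 in the columns named for 8 h. In the counts the column named 8 h replicate 14 was thus the highest, where the TPM library of that name was the lowest. This opposite order holds for the names only. Over 7463 genes, that column lay within 0.1 log2 of the table of the same name in 24.4% of cases. The column named 8 h replicate 13 lay so close to the table of 8 h replicate 14 in 77.7%. At 36.0 CPM it was the lowest for Ccne1, as that table was in TPM. EdgeR gave a log2 fold change of 0.39 (SE 0.23, adjusted p = 0.966). On the 3 columns named for series 1, where the spread at 8 h is taken to equal that at 1 h, it was 0.65 (adjusted p = 0.00783 by edgeR, 7.67% of genes being at or under 0.05), against -0.11 for the TPM tables of the same 3 names. The stretch before Ccne1 is printed because it is the GC-rich counterpart to that of Cdk4 in a gene that differed by series (chr7:38107535-38107740, GRCm38.p6, minus strand).
Ccne1 promoter: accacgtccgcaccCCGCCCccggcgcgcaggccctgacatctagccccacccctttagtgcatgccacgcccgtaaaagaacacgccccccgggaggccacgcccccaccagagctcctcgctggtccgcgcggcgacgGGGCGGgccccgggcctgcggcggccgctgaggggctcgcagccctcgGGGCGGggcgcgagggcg
It held 3 GC boxes and 0 of the E-box and E2F strings. The full window of 250 bases, part of which lies inside the gene, held 4 GC boxes. Among all windows of that length, a GC box occurred in 32.7%, 4 or more in 4.09%, and an E2F string in 1.86%. None of the windows of the 6 members held an E2F string, which says only that these letters are not there. The windows of Cdk6 and E2f1, and a Ccnd3 window, lay wholly inside the gene as the abundance tables place it.

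Ccne2, the second E-type cyclin gene (chr4:11191351-11204779, plus strand), was 18.4 and 16.4 TPM at 1 h and 18.7, 26.2 and 32.8 TPM at 8 h. The groups did not overlap, but 8 h replicate 14 exceeded the higher 1 h library only slightly. Its log2 fold change was 0.52 (SE 0.23, adjusted p = 0.419 by limma), 0.10 with series as a term (adjusted p = 0.894 by limma) and 0.73 without 8 h replicate 14 (adjusted p = 0.0215 by limma). In CPM it was 38.2 and 33.5 at 1 h and 42.8, 42.3 and 53.8 in the columns named for 8 h. Ccne2 was the only 1 of the 8 members in the count table whose 8 h columns all lay above both 1 h columns, against 11.6% of the genes there. None lay below both, against 7.04%. For Ccne2 edgeR gave 0.34 (SE 0.16, adjusted p = 0.966). Ccne1 made up 61.3% ± 2.84 (SD, n = 2) of the E-type cyclin level at 1 h and 58.8% ± 2.88 (SD, n = 3) at 8 h (two-sided exact permutation p = 0.4). The ratio of the summed E-type cyclins to their kinase partner Cdk2 was 1.36 ± 0.05 (SD, n = 2) at 1 h and 1.36 ± 0.15 (SD, n = 3) at 8 h.

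Cdkn1b encodes p27, an inhibitor of cyclin-dependent kinases that also assists the assembly of cyclin D with Cdk4 (chr6:134920401-134925513, plus strand). It was 73.5 and 69.5 TPM at 1 h and 70.7, 84.8 and 90.4 TPM at 8 h. The groups overlapped, with 8 h replicate 14 between the 1 h libraries and the series 2 libraries above. On the log2 scale the difference was 0.19 (SE 0.13, adjusted p = 0.518 by limma), -0.015 with series as a term (adjusted p = 0.980 by limma) and 0.29 without 8 h replicate 14 (adjusted p = 0.0738 by limma). Its CPM was 159.8 and 154 at 1 h and 143, 157 and 174 in the columns named for 8 h, and edgeR gave -0.014 (SE 0.12, adjusted p = 0.990). The ratio of the D-type cyclin sum to Cdkn1b was 25.4 and 26.9 at 1 h and 30.3, 33.5 and 31.4 at 8 h, with no overlap. That ratio and the ratio to the summed kinases share the D-type cyclin sum, whose groups were themselves separated. The ratio of D-type to E-type cyclins overlapped, at 41.5 and 41.9 at 1 h and 48.6, 41.1 and 37.5 at 8 h. No rate of separation over all genes was computed for such ratios. The Cdkn1b window is printed as that of the inhibitor beside the kinase and cyclin above (chr6:134920151-134920400, GRCm38.p6, plus strand), and it held 1 GC box and 0 E-boxes.
Cdkn1b promoter: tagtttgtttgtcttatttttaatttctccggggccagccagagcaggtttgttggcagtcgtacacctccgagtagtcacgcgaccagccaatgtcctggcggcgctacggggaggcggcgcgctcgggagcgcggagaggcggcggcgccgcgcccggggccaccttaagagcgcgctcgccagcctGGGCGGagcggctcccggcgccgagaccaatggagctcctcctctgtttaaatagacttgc
In this window, too, the capitals mark the GC box.

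Rb1 encodes the retinoblastoma protein (chr14:73183673-73325822, minus strand). It was 40.7 and 37.6 TPM at 1 h and 39.8, 31.2 and 35.2 TPM at 8 h. The groups overlapped, and both series 2 libraries lay below the other 3. The change on the log2 scale was -0.15 (SE 0.13, adjusted p = 0.602 by limma), 0.024 with series as a term (adjusted p = 0.974 by limma) and -0.23 without 8 h replicate 14 (adjusted p = 0.180 by limma). In CPM it was 126 and 120.1 at 1 h and 102.04, 122 and 91.2 in the columns named for 8 h, and edgeR gave -0.25 (SE 0.14, adjusted p = 0.966). The direction in the counts was below 0 in all 11 alternatives, none of them with an adjusted p at or under 0.05. These alternatives reuse the same columns, and Ccne1 and Ccne2 also kept their direction in all 11. In TPM the direction of Rb1 held in 8 of 10 alternatives.

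E2f1 encodes a transcription factor that Rb holds inactive and that activates S phase genes (chr2:154559407-154569892, minus strand). It was 15.0 and 12.7 TPM at 1 h and 10.5, 17.6 and 17.9 TPM at 8 h. The groups overlapped completely, since the 8 h libraries held both the lowest and the highest values. Limma gave a log2 fold change of 0.11 (SE 0.25, adjusted p = 0.834), -0.36 with series as a term (adjusted p = 0.563 by limma) and 0.35 without 8 h replicate 14 (adjusted p = 0.0987 by limma). Its CPM was 29.9 and 25.96 at 1 h and 33.8, 21.4 and 32.5 in the columns named for 8 h, and edgeR gave 0.037 (SE 0.22, adjusted p = 0.986).

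Without 8 h replicate 14, 5 of the 10 members had an adjusted p at or under 0.05 by limma with no fold change threshold (Ccnd1, Ccnd2, Cdk6, Ccne1 and Ccne2), against 20% of the 13901 genes tested. None passed the fold change threshold as well, against 4.12% of genes. In the count table, edgeR called 0 of 7590 genes and 0 of the 8 members, and the count by DESeq2 or limma-voom was 0 as well. Before adjustment p was under 0.05 for 0 of the 8 members with edgeR, against 199 genes (2.62%, of which 1.29% of genes were higher and 1.33% lower at 8 h), while DESeq2 had 227 such genes and limma-voom 178. The counts behind the members ranged from 385 to 604 for E2f1 up to 34975 to 67300 for Ccnd2.

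**Figure D3:**
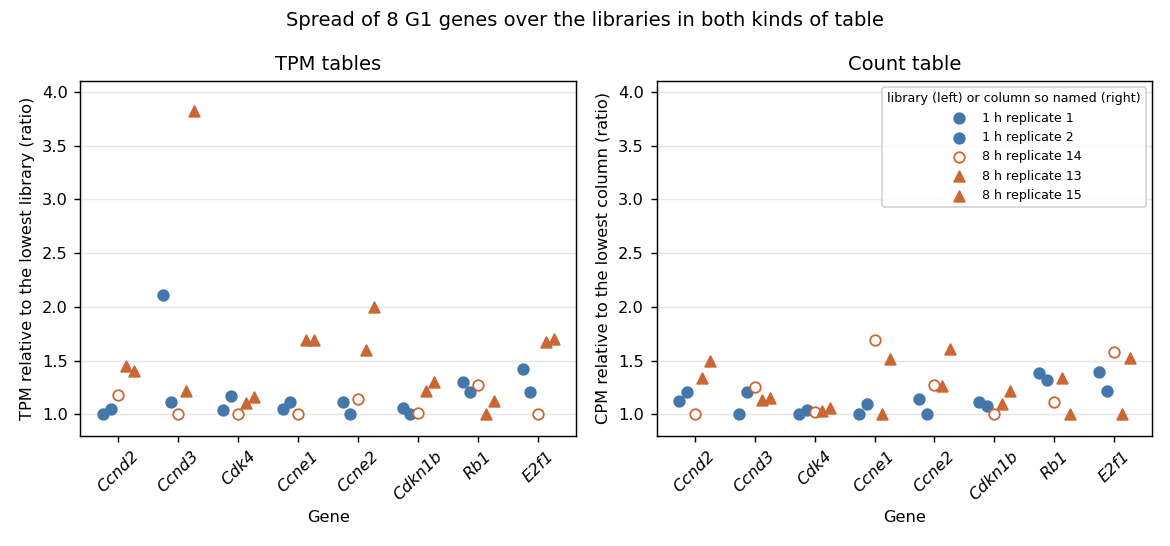
Level of the 8 G1 genes that both kinds of table hold, each divided by its lowest library or column, as TPM (left) and CPM (right); symbols mark the library, or the column of that name, by time and identifier series. Ccnd3 spreads 3.83-fold in TPM and 1.25-fold in CPM, and for Ccne1 the open circle is lowest on the left and highest on the right. On the right the open circle is the column named 8 h replicate 14, which matched no TPM table closely.

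The names of the 8 h count columns limit how far the 2 readouts can be set side by side. Over 7463 genes, the column named 8 h replicate 13 lay within 0.1 log2 of the table of 8 h replicate 14 in 77.7% of cases, and that named 8 h replicate 15 lay so close to the table of 8 h replicate 13 in 77.8%. The remaining column, named 8 h replicate 14, came within that distance for at most 38.6%, with 1 h replicate 2, so it matched no table closely. Conversely, the table of 8 h replicate 15 came that close to no column for more than 40.5% of genes. Columns are given under their own names here, and which library each holds was not settled by the sources used. The comparison of all 8 h columns with both 1 h columns does not depend on exchanged names within the 8 h group. It does include the unmatched column, which gave the highest Ccnd3, Ccne1 and E2f1 values and the lowest Ccnd2 and Cdkn1b values of the table. The count fits for series 1 alone or with series as a term do depend on the names. Their difference by time comes from that column alone.

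The regulators around these genes were read in lists by role, of which 0 genes were called by limma over all libraries. The counts of genes with an unadjusted p under 0.05 below stand against 12.3% of all genes (9.52% higher and 2.82% lower at 8 h). Of the 6 other INK4 and CIP/KIP inhibitors, 0 had an unadjusted p under 0.05. Cdkn1a, which encodes p21 and is the most abundant of them, was 607 and 615 TPM at 1 h and 719, 736 and 619 TPM at 8 h. The median log2 fold change of this list was 0.16. Of the pocket proteins related to Rb, Rbl1 (p107) was 13.8 and 14.1 TPM at 1 h and 15.8, 26.7 and 33.8 TPM at 8 h, a log2 fold change of 0.76 (SE 0.30, adjusted p = 0.402 by limma). For Rbl1 it was 0.17 with series as a term (adjusted p = 0.812 by limma) and 1.05 without 8 h replicate 14 (adjusted p = 0.00820 by limma), where it was called. Rbl2 (p130), its relative of quiescent cells, was 20.4 to 21.4 TPM in series 1 and 24.3 and 24.7 TPM in series 2.

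Among the 9 other E2F and DP factors, 3 had an unadjusted p under 0.05, all higher at 8 h, against 9.52% of all genes. E2f4, a factor that works mainly as a repressor with pocket proteins, was 34.3 and 32.3 TPM at 1 h and 44.6, 48.8 and 47.3 TPM at 8 h. E2f5 was 31.4 and 30.8 TPM at 1 h, and 41.5, 44.8 and 48.0 TPM at 8 h. In both, 8 h replicate 14 stood with the other 8 h libraries rather than with 1 h. Their log2 fold changes were 0.48 (SE 0.10, adjusted p = 0.267 by limma) and 0.51 (SE 0.11, adjusted p = 0.269 by limma), and the third, E2f6, gave 0.47 (SE 0.14, adjusted p = 0.348 by limma). With series as a term they were 0.41, 0.41 and 0.27 (adjusted p = 0.412, 0.423 and 0.628 by limma), and without 8 h replicate 14 they were 0.52, 0.56 and 0.58 (adjusted p = 0.0187, 0.0153 and 0.0216 by limma). Tfdp1, the most abundant of the list and the dimer partner of E2F proteins, overlapped between groups, with 204 to 223 TPM in series 1 and 276 and 275 TPM in series 2. The median of the list was 0.45.

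Of 5 genes of CDK2 and CDK activation, 0 had an unadjusted p under 0.05. Cdk2 was 29.3 to 34.1 TPM in series 1 and 57.1 and 55.3 TPM in series 2, with 8 h replicate 14 the lowest. Cdc25a, the phosphatase that activates Cdk2, was 17.1 and 17.4 TPM at 1 h and 18.4, 25.1 and 29.4 TPM at 8 h. Of 8 genes for the turnover of G1 regulators, 1 had an unadjusted p under 0.05, a share near that of all genes. That gene was Skp2, which marks p27 for degradation, with 16.7 and 16.4 TPM at 1 h and 22.5, 28.3 and 33.2 TPM at 8 h (log2 fold change 0.71, SE 0.18, adjusted p = 0.300 by limma). Its 8 h libraries all stood above both 1 h libraries, replicate 14 included. Skp2 gave 0.42 with series as a term (adjusted p = 0.475 by limma), and without 8 h replicate 14 it was 0.85 (adjusted p = 0.00918 by limma). Cks1b, its cofactor, split by series instead, with 58.7 to 65.8 TPM in series 1 and 142 and 116 TPM in series 2. Skp1a was the most abundant of the list, at 380.2 to 461 TPM with overlap. Of the 3 Myc factors 1, Myc, had an unadjusted p under 0.05 (log2 fold change 0.26, SE 0.10, adjusted p = 0.396 by limma). It was 0.26 both with series as a term (adjusted p = 0.611 by limma) and without 8 h replicate 14 (adjusted p = 0.122 by limma).

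Genes of the later phases were also split by series. Of 13 S phase genes, which E2F factors switch on, 12 were higher in both series 2 libraries than in all 3 series 1 libraries, against 39.8% of all genes, and 0 had groups by time that did not overlap, against 23.7% of all genes above and 9.43% below. Of 10 G2 and mitosis genes, all 10 were higher in both series 2 libraries, against the same 39.8%, and 1, Aurka, a mitotic kinase gene, did not overlap by time. The cyclin A gene Ccna2 was 69.3 to 73.8 TPM in series 1 and 203 and 231 TPM in series 2, and the mitotic kinase gene Cdk1 was 43.9 to 50.6 TPM in series 1 and 127 and 133 TPM in series 2. The median difference from the 1 h mean over the S phase list was -0.12 in 8 h replicate 14, and 0.38 and 0.49 in replicates 13 and 15. For G2 and mitosis it was -0.10, 1.33 and 1.36, and for the 10 G1 members it was -0.05, 0.29 and 0.41. Over all 13870 genes these medians were 0.01, 0.14 and 0.15.

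**Figure D4:**
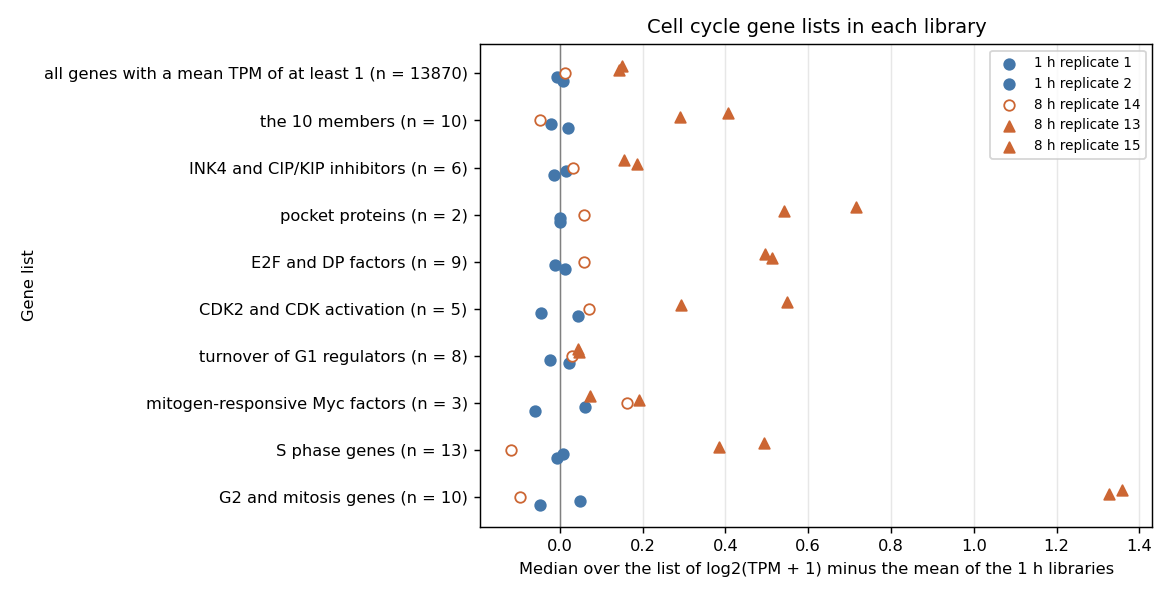
Median over each gene list of log2(TPM + 1) minus the mean of the 1 h libraries, 1 symbol per library, with the number of genes tested in each list in parentheses. The open circle (8 h replicate 14) lies between -0.12 and 0.16 in the rows plotted, and the triangles (8 h replicates 13 and 15) lie farthest out for the G2 and mitosis genes, at 1.33 and 1.36.

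Across the 5 libraries, likeness of pattern was measured as the root-mean-square difference of log2(TPM + 1) centred per gene. Among the members, Ccnd1 and Ccnd2 were the closest pair (0.094), and Ccnd3 and Cdk6 were far from most others. Over the 13870 genes tested, the nearest to Ccnd1 was Nrn1 (0.028), followed by Hist2h2be (0.033). The nearest to Ccnd2 was Spry2 (0.010), which was 161 and 166 TPM at 1 h and 187, 231 and 225 TPM at 8 h, followed by Srpr (0.019). The nearest to Cdk4 was Ncan (0.016) and to Cdk6 Ptprn (0.038). Heg1 (0.020) lay nearest to Ccne1 and Foxp4 (0.020) to Ccne2. Cltc (0.0096) lay nearest to Rb1 and D2hgdh (0.029) to E2f1. Tspan5 was nearest to Ccnd3 at a larger distance (0.17), and it shared the pattern of high 1 h replicate 1 and 8 h replicate 15, with 21.0 and 12.2 TPM at 1 h and 11.4, 15.8 and 54.9 TPM at 8 h. With 5 libraries, many genes share any given pattern, and the points share the same libraries.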

How the data were processed

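Poly-A selected, stranded libraries of 5 neural precursor cultures were sequenced by the authors, who aligned the reads to GRCm38 with STAR and counted them with featureCounts through nf-core/rnaseq. Conversion of base calls used bcl2fastq 2.19.1.403 per the submitters' processing notes. The deposited count table holds raw read counts of 7599 genes, with column totals from 13988166 to 18572154, and is described as filtered by a rule not given in the sources used here. Because it covers part of the genes (53.9% of those at a mean TPM of 1 or more), its totals are not the full depth. For each library the authors also deposited TPM, FPKM and mean coverage per gene, from a tool not named in those sources. Rows of the same gene were summed in TPM (15 to 20 extra rows per table). FPKM served only to repeat the shares, and coverage was not used. The depth behind a TPM value is therefore given only for the 8 members with counts. Gene coordinates were those of the TPM tables, and transcript numbers and lengths came from GENCODE vM21, whose coordinates were identical for 9 of the 10 members, Ccnd1 being the exception.

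Groups and replicate numbers came from the labels. TPM was tested with limma 3.58.1 (R 4.3.3) with trended variance on log2(TPM + 1), for 13870 genes whose mean TPM was 1 or more, and counts with edgeR 4.0.16 (quasi-likelihood, filterByExpr, TMM). P-values were adjusted over all genes tested by Benjamini-Hochberg, and a call needed an adjusted p no higher than 0.05 and a log2 fold change beyond 1 in either direction. The SE of an edgeR fold change was derived from its F statistic. CPM was the count scaled to the column total. Shares were compared by two-sided exact permutation over the libraries with SciPy 1.17.1. Promoters were read from a RefSeq table of GRCm38.p6. Alternatives were a pseudocount of 0.1, no filters, median-ratio scaling, no fold change threshold, DESeq2 1.42.0, limma-voom, RLE size factors, series as a term, series 1 alone, and each library left out. On simulated data, limma recovered 92% of 200 changed genes over 13870 genes and edgeR 100% of 200 over 7409, each with 0 false calls. The planted changes were larger than the fold change of any member, and the simulated libraries held no series difference. These rates thus do not measure how well changes of the members' size could be found. P-values set each difference against the spread between these samples. With series as a term or in series 1 alone, 8 h replicate 14 alone sets the time difference, so its spread was not measured.

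The members and lists were chosen with earlier results of these data known. Genes named beside the members were taken from the most abundant or most changed of each list, those at 0, and the nearest in pattern. Nearness was by root-mean-square difference (symbols that are not Gm numbers or Rik names). Not every gene that met these rules is named. Left out, for example, were Ccnh (the most abundant CDK activation gene, log2 fold change 0.33) and Cdkn2d (the most changed inhibitor, 0.40). The nearest gene to Cdkn1b is not reported here. Other list genes, and those with an unadjusted p under 0.05, were chosen after their values were seen.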

Additional observations from a re-analysis of the deposited data

How the results depend on the processing

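None of the members was called under any of the 21 alternatives. For TPM, 83 fold changes of the members kept their direction and side of the threshold and 17 changed direction. With series as a term and in series 1 alone, these were Ccnd3 (-0.60), Ccne1 (-0.11), Cdkn1b (-0.015), Rb1 (0.024) and E2f1 (-0.36). Without 1 h replicate 2 they were Ccnd3 (-0.33), Cdk4 (0.059) and E2f1 (-0.0004). Cdk4 was 0.036 when 8 h replicate 14 was left out, E2f1 was -0.0013 when 8 h replicate 13 was, and Ccnd3 was -0.46 and E2f1 -0.012 when 8 h replicate 15 was. Over the libraries left out in turn the ranges were -0.46 to 0.57 for Ccnd3, -0.11 to 0.059 for Cdk4 and -0.012 to 0.35 for E2f1. Of the fold changes in counts, 75 kept their direction and 13 reversed. Ccnd2 was -0.26 with series as a term or in series 1 alone. In both settings the 8 h value comes from the column named 8 h replicate 14, which matched no TPM table closely. Cdk4 was 0.0017 with DESeq2 and 0.0018 with RLE size factors. The others reversed when a column was left out, with ranges of -0.018 to 0.26 for Ccnd2, -0.066 to 0.22 for Ccnd3, -0.029 to 0.035 for Cdk4, -0.082 to 0.066 for Cdkn1b and -0.066 to 0.22 for E2f1. The share of Cdk4 differed by -0.022 percentage points in series 1 alone, a reversal, and the other 20 values of the shares kept their direction. Among them, the difference in the Ccne1 share was -0.48 points without 1 h replicate 2 and -4.50 points without 1 h replicate 1, against -2.49, and also -4.13 and -1.43 points without 8 h replicates 13 and 15. That in the Cdk4 share was 0.41 points without 8 h replicate 14, against 0.27, and that in the Ccnd1 share was 1.10 points in series 1 alone, against 2.26. The number of genes called in the TPM tables was 6. It was 0 with no filter on low values (2371 with an unadjusted p under 0.05, more genes being tested), 19 with series as a term, and 0 to 573 over the libraries left out. It was 573 without 8 h replicate 14 and 1 without 8 h replicate 13, and 0 without 1 h replicate 1 (767 with an unadjusted p under 0.05), 1 h replicate 2 (668) or 8 h replicate 15 (850). In the counts it was 0, and 145 in the columns named for series 1 alone. The cause was not tested. No paired analysis was possible because the groups share no replicate number. Groups of 2 and 3 libraries were too small for a test of outlying samples.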
